A study of Mus musculus with 12 samples.

Results

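The receptors for interleukin-5 (IL-5), IL-3, GM-CSF, IL-4 and IL-13 were followed through 8 genes in airway eosinophils: Il5ra, Il3ra, Csf2ra, Csf2rb, Csf2rb2, Il4ra, Il13ra1 and Il2rg. They were taken by symbol, as a fixed list, from the 39666 genes of the deposited count table, and all 8 were found. RNA of Il13ra1, the chain that pairs with the IL-4 receptor alpha chain in the receptor for IL-13, was 1.66-fold higher in eosinophils that carry the receptor TREM-1 on their surface than in those that do not. RNA of Il4ra and Il5ra was lower in the TREM-1+ cells by smaller amounts, to 0.851 and 0.898 of the TREM-1- level. The 2 lower calls depended on how libraries were scaled, and the Il13ra1 call did not. The other 5 genes did not pass the test.

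All 12 libraries came from wild-type C57BL/6 mice aged 8 to 12 weeks with ovalbumin-driven allergic airway disease. Sensitization used 20 µg of ovalbumin in 4 mg of alum on day 0 and again on day 7, nebulized 1% ovalbumin followed for 40 minutes a day from day 16 to day 18, and tissue was taken on day 19. Eosinophils of 6 pooled lung lavages were each split by sorting into TREM-1+ and TREM-1- cells (side-scatter-high, CD45+, CD11b+, Siglec-F+, low to middle CD11c and Ly6G), so the 2 groups share mice, allergen and gate and differ in the TREM-1 stain. The labels do not say how many mice a pool held, and no unchallenged eosinophils were compared. RNA was depleted of ribosomal RNA and read as stranded 100 bp paired ends.

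IL-5, IL-3 and GM-CSF each bind an alpha chain of their own (Il5ra, Il3ra, Csf2ra) and signal through a shared beta chain, Csf2rb, mainly by the kinase JAK2 and the transcription factor STAT5. These cytokines drive the formation, survival and activation of eosinophils, and Il5ra is a defining gene of the lineage. Mice have a further beta chain, Csf2rb2, that serves IL-3 only. IL-4 binds the chain encoded by Il4ra, which pairs either with the common gamma chain Il2rg, in a receptor for IL-4, or with Il13ra1, in a receptor for IL-4 and IL-13, and both signal mainly through STAT6.

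Library totals ran from 8626701 estimated counts, in the TREM-1+ library of lavage 4, to 19274912 in TREM-1+ cells, and from 16513387 to 21234053 in TREM-1- cells. Trem1, the gene behind the sort, rose from 30.7 ± 8.12 CPM (SD, n = 6; CPM, counts scaled to a common library total by TMM factors) to 93.1 ± 20.0 CPM (SD, n = 6), and its highest TREM-1- value, 42.1 CPM, lay below its lowest TREM-1+ value, 73.5 CPM. Eosinophil markers were abundant in both fractions, with summed levels of 4340 to 6744 CPM in TREM-1- and 4231 to 6452 CPM in TREM-1+ libraries. Of 10 tested, 3 rose (Prg2, Alox15 and Ear6) and 5 fell, Siglecf and Ccr3 among the latter, beside 3.1% and 6.72% of all tested genes. With library totals alone in place of TMM factors, the fall of Siglecf did not pass the test, at -0.007 on the log2 scale. That of Ccr3 did. The libraries of lavages 1 and 2 lay closest to each other and had lower levels of some macrophage genes (Mrc1, Chil3, Fn1) and of the T-cell gene Cd3e than the others, so values are also given for those lavages and for lavages 3 to 6.

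The 2 beta-chain genes are near copies, so reads can be hard to assign to one of them. Their coding sequences have 2688 bases (Csf2rb) and 2634 bases (Csf2rb2) in GENCODE vM21 and were identical at 2504 of 2626 aligned bases (95.4%), with an identical run of up to 242 bases, longer than a 100-base read. Words of 31 bases were compared over all full protein-coding transcripts of each gene, with their untranslated parts. Of these words, 26.2% of those in Csf2rb also occur in Csf2rb2, and 29.0% of those in Csf2rb2 occur in Csf2rb. The most divergent 90-base window shows where reads can tell them apart. It covers coding bases 308 to 397 of Csf2rb and 311 to 400 of Csf2rb2, counted from the start codon, and capitals mark its 16 differing positions.
Csf2rb: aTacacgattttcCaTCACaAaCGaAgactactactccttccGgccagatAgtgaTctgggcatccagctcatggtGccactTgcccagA
Csf2rb2: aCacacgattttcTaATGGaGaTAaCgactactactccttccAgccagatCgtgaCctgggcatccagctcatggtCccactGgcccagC
The sources used here do not say how reads from identical stretches were divided, so the split between the 2 genes is uncertain while their sum is not affected by it.

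For the 3 receptor genes whose RNA differed between fractions, the 250 bases before the RefSeq start in build GRCm38.p6 are shown, 5′ to 3′ on the gene's strand. The RefSeq table held starts for 7 of the 8 genes and none for Csf2rb. Both strands of each 300-base window (250 bases before the start and 50 after) were searched for the STAT-type word TTCNNNGAA, its form with 4 bases between TTC and GAA, the GATA-type words TGATAA and AGATAA, the ETS-type word GAGGAAGT and TATAAA. Il5ra lies on the minus strand at chr6:106749038-106749287, Il4ra on the plus strand at chr7:125552021-125552270 and Il13ra1 on the plus strand at chrX:36111858-36112107. Capitals mark a match, AGATAA, whose first base in Il5ra lies at -74.
Il5ra: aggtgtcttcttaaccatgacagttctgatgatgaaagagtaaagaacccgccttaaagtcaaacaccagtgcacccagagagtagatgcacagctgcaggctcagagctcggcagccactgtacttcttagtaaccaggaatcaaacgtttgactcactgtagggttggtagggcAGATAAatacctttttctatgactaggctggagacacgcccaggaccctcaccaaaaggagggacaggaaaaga
Il4ra: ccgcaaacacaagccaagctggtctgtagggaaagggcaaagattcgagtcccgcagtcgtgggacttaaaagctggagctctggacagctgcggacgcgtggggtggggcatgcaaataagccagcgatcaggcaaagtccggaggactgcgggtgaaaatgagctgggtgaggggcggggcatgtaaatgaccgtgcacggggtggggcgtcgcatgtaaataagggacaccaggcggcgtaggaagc
Il13ra1: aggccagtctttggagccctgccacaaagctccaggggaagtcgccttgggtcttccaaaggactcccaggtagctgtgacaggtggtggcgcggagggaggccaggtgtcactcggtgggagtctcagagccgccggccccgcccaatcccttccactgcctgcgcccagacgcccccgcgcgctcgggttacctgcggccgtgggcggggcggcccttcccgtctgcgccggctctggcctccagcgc
The 3 stretches differ in base composition: 48% G or C with 4 CpG in Il5ra, 59.6% with 17 CpG in Il4ra and 70.8% with 21 CpG in Il13ra1. Across all 32851 RefSeq promoter windows of 300 bases the median was 52.7% G or C. The 300-base windows of Il5ra, Il4ra and Il13ra1 had 44.3%, 62% and 71%. The word AGATAA occurs in 11.2% of those windows. Il5ra also had TTCAATAGAA, the STAT-type form with 4 bases between, with its first base at +28, and 6.95% of windows hold such a match. Csf2rb2 had TTCTGAGAA at -15 (TTCNNNGAA, 8.30% of windows), TTATCA at -38 (TGATAA read on the other strand, 9.05%) and ACTTCCTC at +28 (GAGGAAGT on the other strand, 3.20%). The windows of Il4ra, Il13ra1, Il3ra, Csf2ra and Il2rg had none of the 6 words, and TATAAA, held by 13.6% of windows, was in none of the 7. A match is a run of letters and was not tested as a binding site.

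Each gene was tested between fractions with edgeR's quasi-likelihood test on all 12 libraries, with the lavage as a block, Benjamini-Hochberg adjustment over 18302 tested genes and TMM library factors, which are set from genes of moderate change. Fold changes are TREM-1+ over TREM-1-. The filter on low counts kept all 8 receptor genes. Of these 3 were called at an adjusted p below 0.05, 1 higher and 2 lower. Over all tested genes 9.82% were called, 3.1% higher and 6.72% lower. The median log2 fold change of the 8 genes was -0.06, beside 0.004 for all tested genes. With library totals alone in place of TMM factors, the median of all genes moved to 0.13, a shift that is read beside each small change here. In bulk RNA, fewer cells of a type and less RNA per cell cannot be told apart.

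**Figure D1:**
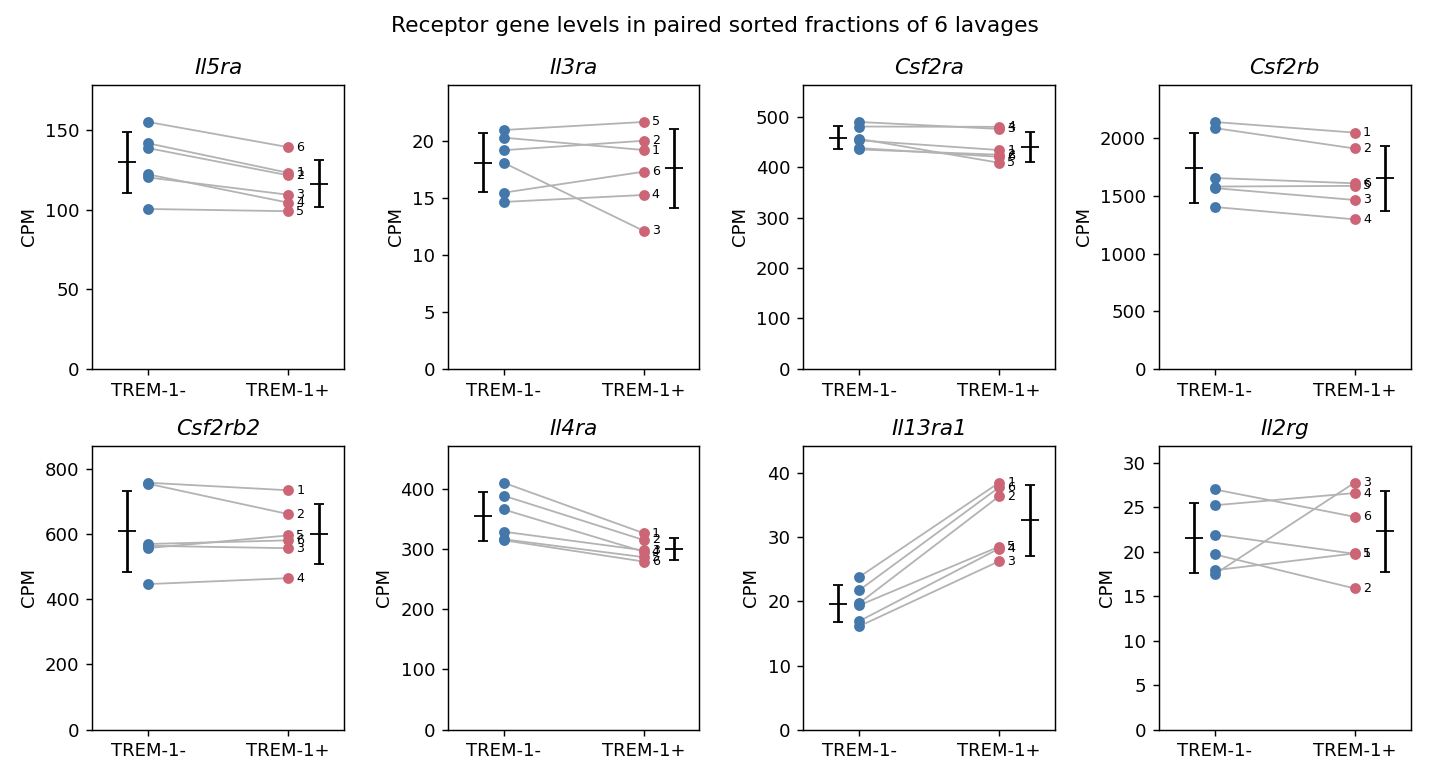
Levels in CPM, on a linear axis from 0 in a panel for each of the 8 receptor genes, with a point for each library, a grey line and a number for each lavage, and black bars for the group mean ± SD (n = 6). The fractions do not overlap for Il13ra1 alone, where TREM-1- libraries end at 23.8 CPM and TREM-1+ libraries begin at 26.3 CPM.

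The shared beta chain Csf2rb had the highest level of the 8 per length of transcript. Its 6 TREM-1- values ran from 1403 CPM over a median of 1617 CPM to 2140 CPM, and its TREM-1+ values from 1296 over 1597 to 2048 CPM. The groups overlapped almost entirely, and Csf2rb was lower in the TREM-1+ library in 5 of 6 lavages. Its log2 fold change was -0.07 ± 0.03 (SE, 95% interval -0.13 to -0.01), with an edgeR adjusted p of 0.120. This was called by DESeq2 (adjusted p = 0.0370) and by limma-voom (adjusted p = 0.00221), and with library totals alone the sign turned to 0.05.

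Csf2rb2, the beta chain for IL-3, ranged from 446.5 CPM over a median of 567 CPM to 757 CPM in TREM-1- cells and from 465 over 588 to 734 CPM in TREM-1+ cells. It was higher in 3 lavages and lower in 3, with a log2 fold change of -0.01 ± 0.03 (SE, 95% interval -0.08 to 0.06) and an edgeR adjusted p of 0.908. Of all beta-chain counts, Csf2rb2 took 25.8 ± 0.89% (SD, n = 6) in TREM-1- and 26.6 ± 0.67% (SD, n = 6) in TREM-1+ libraries. With the counts of both genes added, the log2 fold change was -0.06 with an edgeR adjusted p of 0.255.

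Both beta chains differed more between lavages than between fractions. Csf2rb stood at 1910 to 2140 CPM in the 4 libraries of lavages 1 and 2 and at 1296 to 1655 CPM in the 8 of lavages 3 to 6, a ratio of means of 1.35. Csf2rb2 stood at 661 to 757 CPM and at 446.5 to 596 CPM in these sets, a ratio of 1.34. The 2 sets of lavages do not overlap for either gene. The share of all tested genes that separate these sets was not counted, so this cannot be read as particular to the beta chains. The 2 sets were set apart after their likeness was seen and are described here with no test.

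Among the alpha chains, Csf2ra, which binds GM-CSF, varied least over the 12 libraries. Its TREM-1- values ran from 434.8 over a median of 454.3 to 489.3 CPM and its TREM-1+ values from 408.5 over 429.1 to 479.7 CPM. All 6 lavages had the lower value in the TREM-1+ library, though the groups overlapped. A move in 1 direction in all 6 lavages was seen for 13.4% of all tested genes. The log2 fold change was -0.06 ± 0.03 (SE, 95% interval -0.13 to 0.01) with an edgeR adjusted p of 0.320. With library totals alone it was 0.07.

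Il5ra, the alpha chain for IL-5, fell slightly. TREM-1- levels by lavage, from lavage 1 to lavage 6, were 141.8, 138.7, 120.3, 122.2, 100.5 and 155.1 CPM, and TREM-1+ levels were 123.2, 121.7, 109.4, 104.5, 99.1 and 139.3 CPM. Every lavage had less in the TREM-1+ library, by 0.23 on the log2 scale at most in lavage 4 and by 0.02 in lavage 5, while the 2 groups overlapped widely because lavages differ. Of all tested genes, 13.4% moved in 1 direction in all 6 lavages. The log2 fold change was -0.15 ± 0.04 (SE, 95% interval -0.24 to -0.07) with an edgeR adjusted p of 0.00899. The call was lost with library totals alone (-0.03, adjusted p = 0.768), without the block (-0.16, adjusted p = 0.870), without lavage 1 (-0.14, adjusted p = 0.0598) and in lavages 3 to 6 alone (-0.14, adjusted p = 0.138). Relative to the median of all genes the difference was about the same under both scalings.

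Il3ra, the alpha chain for IL-3, was a low gene with 149 to 411 counts per library. TREM-1- levels ran from 14.7 over a median of 18.7 to 21.0 CPM and TREM-1+ levels from 12.1 over 18.3 to 21.7 CPM. It was higher in the TREM-1+ library in 4 of 6 lavages. The log2 fold change was -0.05 ± 0.10 (SE, 95% interval -0.25 to 0.15) with an edgeR adjusted p of 0.858, an interval that leaves room for changes as large as those of Il5ra and Il4ra. Without lavage 3 the value was 0.05.

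Il4ra, the chain that binds IL-4 and completes both receptors for it, fell. TREM-1- levels from lavage 1 to lavage 6 were 410.0, 388.5, 328.7, 365.6, 316.1 and 314.5 CPM, and TREM-1+ levels were 326.3, 314.9, 297.8, 295.5, 286.4 and 279.1 CPM. Each lavage had less in the TREM-1+ library, at 0.796 to 0.906 of its partner, and the lowest TREM-1- libraries lay inside the TREM-1+ range. Such a shared direction, up or down, held for 13.4% of all tested genes. The log2 fold change was -0.23 ± 0.04 (SE, 95% interval -0.30 to -0.16) with an edgeR adjusted p of 1.25e-05. With library totals alone it was -0.11 (adjusted p = 0.118), and without the block -0.24 (adjusted p = 0.472). It was called in lavages 1 and 2 alone (-0.30, adjusted p = 2.85e-09) and in lavages 3 to 6 alone (-0.19, adjusted p = 0.00330). The former fit rests on 2 pairs whose libraries lay closest to each other, so its p may reflect partly technical spread.

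Il13ra1, the chain that binds IL-13, rose. TREM-1- levels from lavage 1 to lavage 6 were 23.8, 19.7, 16.1, 16.9, 19.4 and 21.7 CPM, and TREM-1+ levels were 38.5, 36.4, 26.3, 28.2, 28.5 and 37.8 CPM. All 6 TREM-1+ libraries lay above all 6 TREM-1- libraries, and each lavage gave a rise of 1.47-fold to 1.84-fold. Groups that do not overlap, in either direction, were seen for 0.951% of tested genes. The means were 19.6 ± 2.88 CPM (SD, n = 6) and 32.6 ± 5.51 CPM (SD, n = 6), resting on 257 to 750 counts per library. The log2 fold change was 0.73 ± 0.08 (SE, 95% interval 0.57 to 0.89), with an edgeR adjusted p of 2.29e-08. The gene was called higher in all 15 alternatives run, at 0.70 to 0.86. Among the 488 genes called higher with a mean of at least 5 CPM, its fold ranked 52.

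Markers of some other cells also differed between fractions. Over all tested genes 3.1% were called higher and 6.72% lower, shares to read beside each marker list. Of 7 alveolar macrophage markers tested, 5 rose, and their summed level went from 232 to 729 CPM in TREM-1- libraries to 401 to 976 CPM in TREM-1+ libraries, higher in 6 of 6 lavages. Marco, Ear10 and Fabp4, also on this list, had 16, 12 and 24 counts over all libraries and were not tested. All 7 tested members had a higher mean in TREM-1+ cells. Ctsk was higher in 4 of 6 lavages and each other tested member in 6 of 6. The mean of Chil3 went from 151 to 305 CPM and that of Mrc1 from 5.75 to 12.2 CPM, though neither was called. Of 5 dendritic cell markers 1 rose, Itgae, and the list's sum was 66.6 to 79.7 CPM against 93.5 to 116.1 CPM. Most of that sum was Itgae, at a mean of 57.2 CPM against 83.2 CPM, and no other tested member was called. Of 9 T and innate lymphoid cell markers 5 rose, with a sum of 24.7 to 83.0 CPM against 25.7 to 139.7 CPM. In lavages 1 and 2 alone, 2 of the macrophage list were called higher, and its sum went from 232 to 292 CPM up to 401 to 454 CPM. Most of that sum was Car4, at 228 to 269 CPM against 371 to 416 CPM. Chil3 went from 2.86 to 18.3 CPM up to 25.9 to 32.3 CPM there, while Mrc1 was at 0 to 1.03 CPM and the T-cell gene Cd3e at 0.099 to 0.359 CPM. In the same lavages Il13ra1 went from 19.7 to 23.8 CPM up to 36.4 to 38.5 CPM (log2 fold change 0.80, edgeR adjusted p = 1.87e-13). That fit rests on 2 pairs whose libraries lay closest to each other, so its p may reflect partly technical spread. In lavages 3 to 6, where Mrc1 reached 23.6 CPM, the log2 fold change of Il13ra1 was 0.70 (edgeR adjusted p = 2.67e-05).

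The neutrophil list had 6 of 8 markers higher and 2 lower, and Elane at 0 counts in every library. Its sum was 1761 to 2582 CPM without TREM-1 against 1453 to 2444 CPM with it, lower in 6 of 6 lavages. Retnlg made up most of this sum, falling from a mean of 1603 to 1244 CPM. The other marker that fell was Mmp9, from 275 to 185 CPM. The 6 that rose, S100a8, S100a9, Ltf, Ngp, Ly6g and Cxcr2, each did so in 6 of 6 lavages. Their rises ran from 0.22 for Cxcr2 to 2.35 for S100a8 on the log2 scale. Of 8 monocyte and interstitial macrophage markers 3 rose and 1 fell. Of 4 mast cell and basophil markers 1 rose, with Mcpt4 and Tpsb2 at 0 counts in every library, and none of the B cell (3), NK cell (4) or epithelial (2) markers tested was called. The part of these other cells in the receptor differences was not tested, and the split by lavages does not measure it.

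Il2rg, the common gamma chain, showed no called difference. TREM-1- levels ran from 17.5 over a median of 20.8 to 27.0 CPM and TREM-1+ levels from 15.9 over 21.9 to 27.8 CPM, on 259 to 446 counts per library. It was higher in 3 lavages and lower in 3, and lavage 3 had the largest step, 1.59-fold up. The log2 fold change was 0.04 ± 0.10 (SE, 95% interval -0.17 to 0.25) with an edgeR adjusted p of 0.896. Without lavage 3 it was -0.09.

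**Figure D2:**
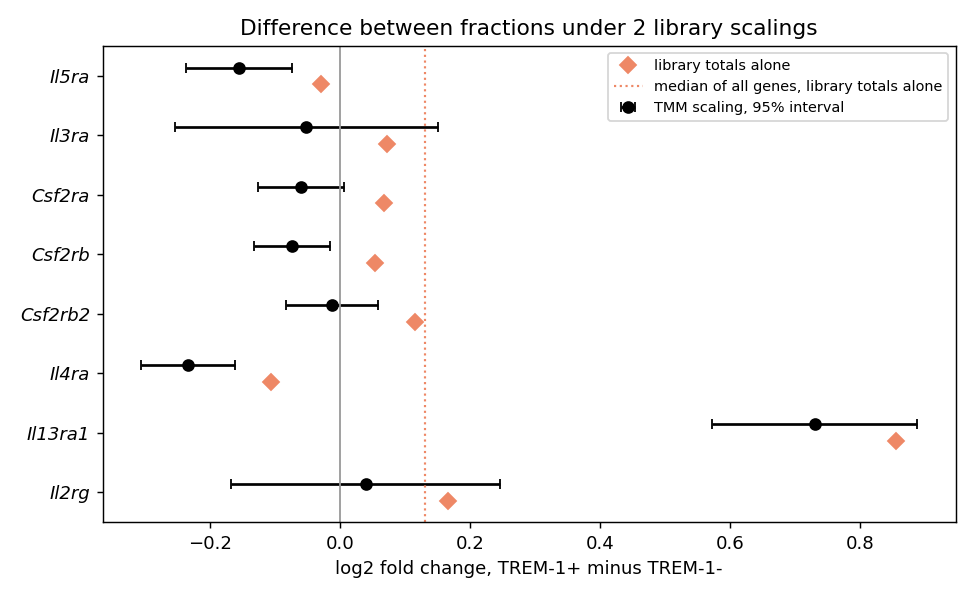
Log2 fold change (TREM-1+ minus TREM-1-) of the 8 receptor genes, with black points and bars for the TMM-scaled edgeR estimate and its 95% interval, diamonds for library totals alone and a dotted line for the median of all genes under totals, 0.13. Il13ra1 stands at 0.73 under TMM, Il4ra at -0.23 and Il5ra at -0.15, and each diamond lies to the right of its point.

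The order of the 8 genes was compared as CPM per kilobase of the longest protein-coding GENCODE vM21 transcript, a length that may not be the one used by these cells. Means over the 12 libraries were 346 for Csf2rb, 243 for Csf2ra, 127 for Csf2rb2, 62.2 for Il4ra, 34.4 for Il5ra, 13.1 for Il2rg, 7.73 for Il3ra and 7.03 for Il13ra1. Each gene lay above the next in 12 of 12 libraries, except that Il3ra lay above Il13ra1 in 7. That last order differed by fraction. Il3ra exceeded Il13ra1 in 6 of 6 TREM-1- libraries, at 7.84 ± 1.11 against 5.28 ± 0.78 CPM per kilobase (SD, n = 6), and in 1 of 6 TREM-1+ libraries, at 7.62 ± 1.51 against 8.79 ± 1.48 CPM per kilobase (SD, n = 6).

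**Figure D3:**
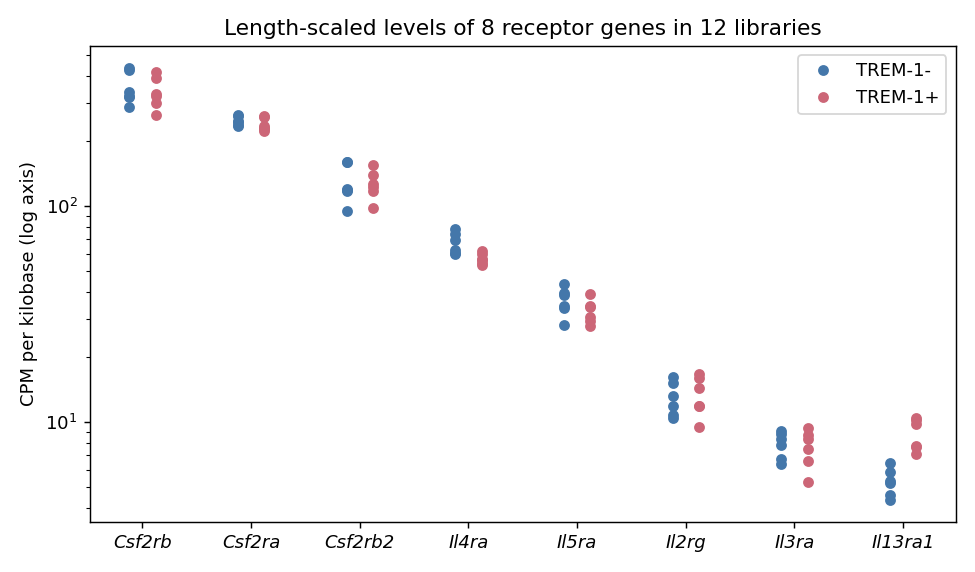
Length-scaled levels (CPM per kilobase, log axis) of the 8 receptor genes in the 12 libraries, ordered by their mean, with TREM-1- and TREM-1+ libraries marked apart. The genes fall from 346 for Csf2rb to 7.03 for Il13ra1, and the fractions separate at Il13ra1.

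Because receptors are built from pairs of chains, 5 ratios between chains were compared within lavages, on CPM with 0.1 CPM added, by an exact two-sided sign-flip permutation test over 6 pairs. That test has 64 patterns and cannot give a p below 0.03125. Il13ra1 relative to Il4ra, its partner, went from 0.0560 ± 0.0087 to 0.109 ± 0.017 (SD, n = 6), a 1.94-fold rise, higher in 6 of 6 lavages (exact permutation p = 0.03125, adjusted p = 0.0521 over 5 ratios). Il13ra1 relative to Il2rg, the other partner choice of Il4ra, went from 0.928 ± 0.164 to 1.54 ± 0.51 (SD, n = 6), higher in 6 of 6 lavages (exact permutation p = 0.03125, adjusted p = 0.0521). In lavage 3 that ratio moved by 0.04 on the log2 scale, and in lavage 2 by 1.19.

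Il5ra relative to the summed beta chains was lower in 6 of 6 TREM-1+ libraries, at 0.0562 ± 0.0097 against 0.0524 ± 0.0080 (SD, n = 6; exact permutation p = 0.03125, adjusted p = 0.0521). Csf2ra relative to Il5ra was higher in 5 of 6 lavages, at 3.61 against 3.84 (exact permutation p = 0.125, adjusted p = 0.156), and Il3ra relative to Il5ra was higher in 5 of 6 (exact permutation p = 0.406, adjusted p = 0.406). All 5 ratios missed the adjusted threshold, and the smallest p the design allows stands behind 3 of them. Ratios do not depend on the library scaling.

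**Figure D4:**
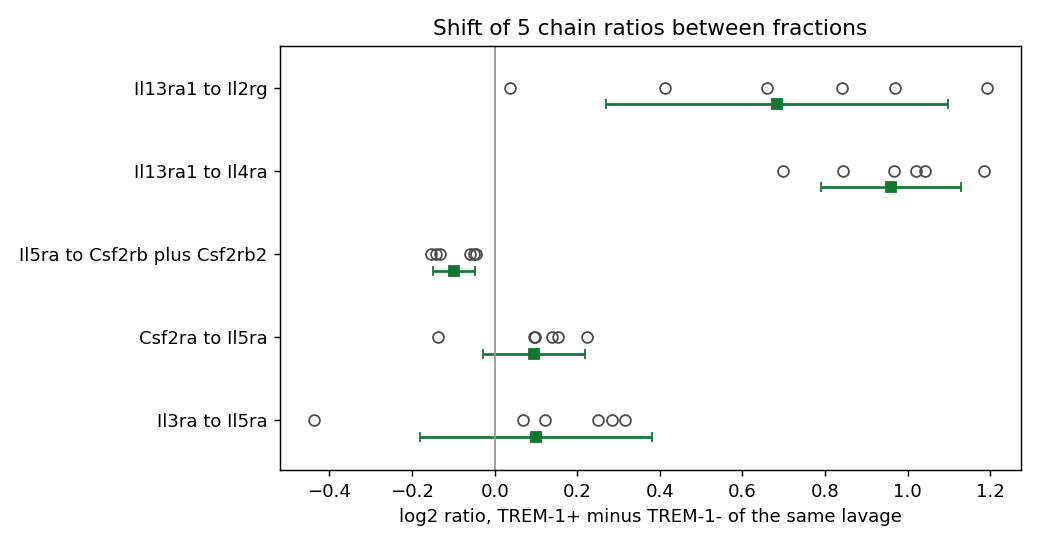
Log2 difference (TREM-1+ minus TREM-1-) of 5 ratios between receptor chains, with an open circle for each of 6 lavages and a green square and bar for their mean ± SD. The Il13ra1 to Il4ra ratio lies between 0.70 and 1.18 in all lavages, and the Il5ra to beta-chain ratio lies just under 0.

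The ligands of these receptors were present to different degrees in the same libraries. Il4 stood at 39.6 ± 5.03 CPM without and 43.0 ± 2.87 CPM with TREM-1 (SD, n = 6; edgeR adjusted p = 0.313), and Il13 at 11.03 ± 3.53 and 11.12 ± 2.63 CPM (SD, n = 6; adjusted p = 0.903). Csf2, the gene of GM-CSF, stood at 0.963 ± 0.406 CPM without and 0.535 ± 0.142 CPM with TREM-1 (SD, n = 6; adjusted p = 0.377), higher in 1 of 6 lavages. Il3 had 65 counts and Il5 had 3 counts over all 12 libraries, too few to test. Of the other ligands of the common gamma chain, the 5 listed included Il2 and Il9, which had 0 counts in every library and the 2 that could be tested were not called.

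Of 22 other cytokine receptor chains of the same class 18 were tested, and 6 rose and 0 fell, with a median log2 fold change of 0.31. Over all tested genes 3.1% were called higher and 6.72% lower, shares to read beside this list and those below. Lifr, the receptor for leukemia inhibitory factor, rose from 30.8 ± 2.41 to 48.9 ± 4.54 CPM (SD, n = 6), a log2 fold change of 0.66 ± 0.07 (SE), and stayed called with library totals alone, without the block and in either set of lavages. Il6st, which encodes gp130, the signalling partner of that receptor, rose by 1.34 ± 0.20 (SE) and Csf3r, the G-CSF receptor, by 0.92 ± 0.14 (SE) on the log2 scale. In lavages 1 and 2 alone 1 chain was called higher and 2 lower, and Il6st there was at 0.364 to 1.34 CPM. Il6st and Csf3r lost their calls in those lavages and without the block. Ghr, the growth hormone receptor, had 0 counts in every library.

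Kinases, STATs and adaptors next to the receptors moved little. Of 24 on the list 23 were tested, and 0 rose and 10 fell, with a median log2 fold change of -0.10. Lyn, a Src-family kinase, fell by 0.29 ± 0.03 (SE), and Inpp5d, the phosphatase SHIP1, fell by 0.24 ± 0.03 (SE) on the log2 scale. With library totals alone 3 of the list were called higher and 2 lower, Lyn (adjusted p = 0.00923) among the latter. The 3 called higher were not among the 10 that fell with TMM factors. The calls in this list therefore depend on the scaling, with which the median of all genes also moved, to 0.13.

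Of 14 genes tested that are linked to STAT5, its feedback genes among them, 8 fell and 1 rose, with a median log2 fold change of -0.23. Pim1, a survival kinase, fell by 0.32 ± 0.03 (SE), Ccnd3, a cyclin, by 0.32 ± 0.04 (SE) and Osm, the cytokine oncostatin M, by 0.79 ± 0.08 (SE) on the log2 scale. Osm went from 69.2 ± 18.2 to 39.7 ± 9.72 CPM (SD, n = 6). Bcl6, a transcriptional repressor, was the one that rose, by 0.48 ± 0.10 (SE). With library totals alone 6 fell and 1 rose.

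Of 18 genes linked to STAT6, downstream of Il4ra, 16 were tested, and 7 rose, 1 fell and 8 were not called, with a median log2 fold change of 0.48. Retnla, which encodes RELM-alpha, rose from 199.7 ± 92.6 to 447 ± 197 CPM (SD, n = 6), a log2 fold change of 1.18 ± 0.06 (SE). Arg1, arginase 1, rose by 1.50 ± 0.17 (SE) and Alox15, 12/15-lipoxygenase, by 0.19 ± 0.03 (SE). Tgm2, transglutaminase 2, went the other way, from 517 ± 72.9 to 168 ± 35.8 CPM (SD, n = 6), a log2 fold change of -1.64 ± 0.11 (SE). Several of these genes are also expressed by macrophages, whose marker sums are given above, and in lavages 1 and 2 alone 4 rose and 1 fell, without Arg1. Whether STAT6 was more active was not measured. Without the lavage block, the calls left in the 4 lists of chains, kinases, STAT5-linked and STAT6-linked genes were 1, 0, 0 and 1 higher and 0, 0, 0 and 1 lower.

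**Figure D5:**
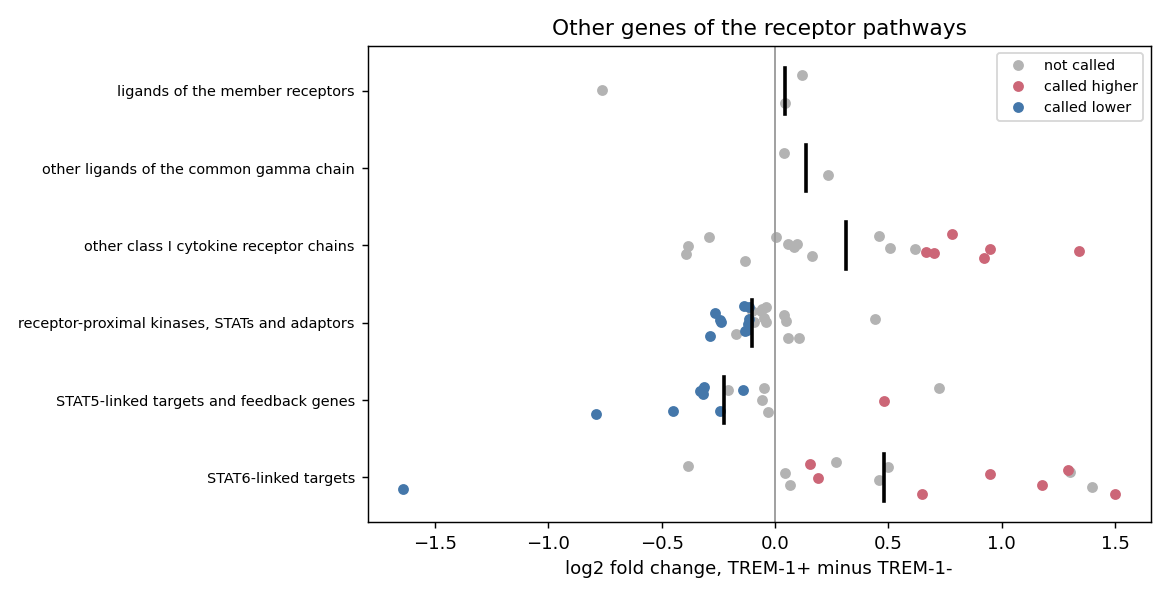
Log2 fold change (TREM-1+ minus TREM-1-) of each tested gene in 6 lists around the receptors, coloured by its call, with a bar at each list's median. The STAT6-linked list has its median at 0.48 and its lowest gene, Tgm2, at -1.64, and the kinase list lies near its median of -0.10.

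The genes whose log2 CPM followed a receptor gene most closely were listed over the 12 libraries, among 10959 tested genes with a mean of at least 5 CPM. The libraries share lavages in pairs, so Pearson's r is given as a description. For Il13ra1 these were Dipk1a (r = 0.920), Hgf, hepatocyte growth factor (r = 0.915), and Ppfibp1 (r = 0.913). Hgf rose from 150.5 to 256.5 CPM, a log2 fold change of 0.77 ± 0.04 (SE). For Il5ra they were Tap2 (r = 0.980), Dtx3l (r = 0.977) and Psmb8 (r = 0.973), of which Tap2 and Psmb8 serve antigen processing. For Il4ra they were Ndel1 (r = 0.935), 2410006H16Rik (r = 0.930) and Cass4 (r = 0.915).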

How the data were processed

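Gene-level estimated counts, deposited by the authors as whole numbers, were used for 12 libraries from 6 lavages. The deposited log2 table holds log2 CPM for 17934 genes, and TMM-scaled log2 CPM recomputed from the counts matched it to within 4.998791e-09. Per the submitters' processing notes, kallisto 0.45.0, R 4.3.0, edgeR 3.42.4 and build GRCm39 were listed without roles. The sources used here give neither annotation nor use of strand.

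Counts were tested in R 4.3.3 with edgeR 4.0.16 (TMM; filterByExpr, minimum count 10, minimum total 15; robust quasi-likelihood F test; lavage and fraction as terms), with p adjusted over 18302 genes and called below 0.05. CPM values use TMM-scaled totals. DESeq2 1.42.0 and limma 3.58.1 (voom) were alternatives, beside other scalings, no filter, no block and left-out lavages. The tests were tried on simulated counts. Both fractions of a lavage carry the same number, per the labels. Their deviations from the group means correlated at 0.13 to 0.50 in all 6 pairs, so the lavage was kept as a block. In lavage 3, with the lowest value, the libraries did not correlate best with each other. Whether lavages came from separate mice is not stated, so the p-values may reflect partly technical spread.

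The receptor genes and lists were chosen with earlier results of these data known. All 8 receptor genes are named. From each other pathway list at most 3 called genes of smallest p in each direction were named, plus those at 0 counts (a gene that this rule names is not reported here); from each marker list its sum, those at 0 counts and at most 2 called members; and 3 genes of most similar pattern. Some marker genes and pathway genes near 0 or of low level were named after their values were seen. So were further members of the eosinophil, alveolar macrophage and neutrophil lists. Promoters came from RefSeq (GRCm38.p6) and transcripts from GENCODE vM21.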

Additional observations from a re-analysis of the deposited data

Results flagged for a closer look

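Values far from the other lavages were looked for in 29 groups of 6, and 3 stood out. Chance gives about 1 in 20. The paired difference of Il3ra (TREM-1+ minus TREM-1-, log2) in lavage 3 was -0.58, below the other 5 lavages. The paired difference of the Il3ra to Il5ra ratio was also lowest in lavage 3, at -0.44 on the log2 scale. The paired difference of the Csf2ra to Il5ra ratio was lowest in lavage 5, at -0.14 on the log2 scale. In that lavage Csf2ra fell most, by 0.16 on the log2 scale, and Il5ra differed least between fractions.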

How the results depend on the processing

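Il13ra1 kept its direction and its call in all 15 alternatives. Without the replicate block, which the pairing of fractions within lavages supplies, 83 genes were called in place of 1797 (27 higher, 56 lower) and 1 receptor gene in place of 3; Il5ra was at -0.16 (adjusted p = 0.870) and Il4ra at -0.24 (adjusted p = 0.472), while the Il13ra1 to Il2rg (0.68, adjusted p = 0.0487) and Il13ra1 to Il4ra (0.96, adjusted p = 0.0108) ratios passed, the unpaired test having more regroupings. With library totals alone 2256 genes were called, 1880 higher and 376 lower against 568 and 1229 with TMM, and 1 receptor gene. Il5ra was then at -0.028, Il4ra at -0.11, Il3ra at 0.073, Csf2ra at 0.068, Csf2rb at 0.055 and Csf2rb2 at 0.12. DESeq2 and limma-voom called Csf2rb lower (-0.077 and -0.073). In lavages 3 to 6 alone 1168 genes were called (366 higher, 802 lower), Il5ra was at -0.14 and Csf2rb2 at 0.037. In lavages 1 and 2 alone Il3ra was at 0.0090 and Il2rg at -0.21. Without lavages 3 and 4 Il5ra was at -0.14 (adjusted p = 0.0790), Il3ra at 0.045 and Il2rg at -0.12. Leaving out 1 lavage at a time gave -0.18 to -0.14 for Il5ra, and its call was lost without lavage 1. The same gave -0.088 to 0.048 for Il3ra and -0.086 to 0.11 for Il2rg, whose signs turned without lavage 3, and -0.030 to 0.023 for Csf2rb2, whose sign turned without lavage 2, none of them called. The cause of these differences was not tested. Counts of 149 to 750 limit Il3ra, Il13ra1 and Il2rg.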

Other observations

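Across the 12 libraries, Csf2rb and Csf2rb2 rose and fell together (Pearson's r = 0.965 of log2 CPM; the genes can share reads), while Il3ra and Il2rg ran opposite (r = -0.81). Il4ra and Il13ra1 had r = -0.49 and Il5ra and Il13ra1 r = -0.02. These are descriptions over libraries that share lavages in pairs.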
